A study of Homo sapiens with 4 samples.

Results

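The BCL2 family was followed in SKOV3-ALDH+ OCSCs through 10 genes chosen by symbol, which were the pro-survival genes BCL2, BCL2L1 and MCL1, the effectors BAX and BAK1, and the BH3-only genes BID, BAD, BBC3, PMAIP1 and BCL2L11. All 10 were found among the 23228 gene symbols of each count file. OCSCs are ovarian cancer stem cells, here SKOV3 cells, an established human ovarian cancer line, that had been sorted for aldehyde dehydrogenase activity with the ALDEFLUOR kit and grown as spheroids. RNA-seq was performed on 2 Vehicle samples and on 2 samples given LY500307, an agonist of estrogen receptor beta (ERβ), at 5 µM, and both groups were collected at 24 h. The comparison asked which transcripts of the apoptosis machinery differed between treated and control OCSCs of this single line. Nothing in the sources used here states that the replicates were separate cultures, so p-values measure only the spread between these samples, which may be technical.

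Proteins of this family decide whether the outer membrane of the mitochondrion stays intact. The effectors BAX and BAK form pores that release cytochrome c, which starts the caspase cascade, whereas the pro-survival proteins hold the effectors and the BH3-only proteins in check. BH3-only proteins relay stress by occupying the pro-survival proteins or by activating the effectors directly. BBC3 encodes PUMA and PMAIP1 encodes NOXA. Much of the control of this family acts on the proteins, through stability, phosphorylation, cleavage and splicing, and counts per gene do not show it.

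The sequences upstream of the 3 members with an unadjusted p below 0.05, BBC3, BAX and PMAIP1, are given because these are the members on which the comparison turned. Each run is the 250 bases before an annotated start in RefSeq (GRCh38.p14), 5′ to 3′ on the strand of the gene, and capitals mark the E-box CACGTG, which reads the same on both strands and is bound by factors such as MYC and USF. The windows lie at chr19:47232668-47232917 on the minus strand for BBC3, at chr19:48954625-48954874 on the plus strand for BAX and at chr18:59899746-59899995 on the plus strand for PMAIP1.
BBC3: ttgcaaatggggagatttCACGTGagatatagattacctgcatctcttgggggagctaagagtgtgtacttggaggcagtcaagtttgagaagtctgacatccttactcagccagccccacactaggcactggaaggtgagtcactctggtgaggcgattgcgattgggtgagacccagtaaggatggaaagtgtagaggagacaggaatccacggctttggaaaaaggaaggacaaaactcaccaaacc
BAX: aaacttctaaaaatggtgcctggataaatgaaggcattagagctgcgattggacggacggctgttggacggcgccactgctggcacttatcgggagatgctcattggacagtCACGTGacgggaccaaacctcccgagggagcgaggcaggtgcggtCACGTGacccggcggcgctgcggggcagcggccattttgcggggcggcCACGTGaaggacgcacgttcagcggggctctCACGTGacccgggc
PMAIP1: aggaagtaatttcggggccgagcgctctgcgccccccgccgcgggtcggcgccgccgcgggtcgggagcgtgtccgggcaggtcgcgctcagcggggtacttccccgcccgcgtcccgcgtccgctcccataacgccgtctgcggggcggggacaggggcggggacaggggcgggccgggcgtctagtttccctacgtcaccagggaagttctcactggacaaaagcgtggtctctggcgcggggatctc

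The BAX window held 4 E-boxes, the BBC3 window 1 and the PMAIP1 window 0. E-boxes were searched after the sequences had been seen. At least 1 copy was present in 6.34% of the 35116 windows of the same length, at least 2 copies in 0.535%, and at least 4 copies in 0.0142%, which was 5 windows. Windows were available for 9 of the 10 members, some with several starts, which made 15 windows. Of these, 4 held an E-box, 1 each for BAX and BBC3 and 2 overlapping windows of BID. The core motif of estrogen receptor sites, GGTCA on either strand, was present in 5 of the 15 windows, those of BAX (1), BID (2) and BAD (2), and in 32.6% of all windows. The 3 such motifs in the BAX window all overlapped an E-box. The palindrome of 2 of them spaced by 3 bases was found in 0.0399% of all windows and in 0 members. These matches describe letters in the windows and not binding. A missing match says only that the letters were not in these 250 bases.

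Between 28841701 and 34943882 reads were counted on genes per library. By counts, the LY500307 libraries differed from each other more than the Vehicle libraries did, with a chi-square per degree of freedom of 44.9 against 5.23 over the 14473 genes that passed the expression filter. On the log2 CPM scale, which weights all genes alike, the SD of the difference between replicates was close in both groups (0.41 and 0.39). All 10 members passed it. Among 8 markers listed for an ovarian epithelial line, EPCAM was at 213 and 217 CPM (reads relative to the library size scaled by TMM) in Vehicle and LY500307. ERBB2 was at 49.9 and 57.9 CPM. KRT18, whose reads can be shared with pseudogenes, was at 24.9 and 30.7 CPM (edgeR, unadjusted p = 0.0477, adjusted p = 0.428). KRT8 was at 0.559 and 0.741 CPM, and KRT19, PAX8, WT1 and MUC16 had 0 to 6 reads in any library. Why the counts of these markers were low was not tested. ALDH1A1 was at 4.99 and 5.37 CPM and ALDH1A2 at 11.2 and 10.04 CPM, and the group means of ALDH1A3 and ALDH3A1 were below 0.4 CPM. ESR2, which encodes the receptor of the agonist, had 7 to 12 reads per library, and ESR1 was listed at 0 in all 4. By counting error alone, a count of 0 allows up to 3 reads, or 0.106 CPM in the shallowest library. PAX8 was also at 0 in all 4, and whether the gene models or the counting gave such zeros was not tested. Of 8 markers of other cell types, PTPRC, CD3E, PECAM1 and VWF had 0 to 11 reads, but CD68, DCN, LUM and COL1A1 passed the filter. COL1A1 was at 186 CPM in Vehicle and 226 CPM in LY500307 (edgeR, unadjusted p = 0.0214, adjusted p = 0.422). DCN, at 9.36 and 8.17 CPM, and LUM, at 17.1 and 15.95 CPM, were lower in both LY500307 samples, and CD68 overlapped. The summed level of the 8, most of it COL1A1, was 221 and 231 CPM in Vehicle and 263 and 267 CPM in LY500307. Their part in the results on the family was not tested, and in such bulk samples fewer cells of a type and less RNA per cell cannot be told apart.

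Transcript levels of the members spanned a wide range (CPM per kb of the MANE transcript, the reference transcript of a gene). BAX was at 199 ± 0.634 and MCL1 at 131 ± 3.48 (mean ± SD, n = 2 Vehicle). BAD followed at 38.2 ± 1.25, BBC3 at 23.8 ± 0.406 and BCL2L1 at 20.3 ± 1.69. PMAIP1 at 11.5 ± 0.253 and BID at 10.6 ± 1.21 overlapped and could not be ordered. BAK1 at 5.44 ± 0.588, BCL2L11 at 1.88 ± 0.199 and BCL2 at 1.07 ± 0.00860 were the lowest. The order of BAX and MCL1 turned with the length used, since per kb of all annotated exons BAX was at 61.3 and MCL1 at 83.3, and the order of BID and BAK1 turned likewise. In LY500307 the order was the same but for BID at 12.9 ± 0.815, which stood above PMAIP1 at 8.52 ± 2.03.

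Compared with Vehicle, BBC3 was the 1 member of 10 that met the criteria of the study's methods for differentially expressed genes (DEGs), an unadjusted p below 0.05 with an absolute log2 fold change above 0.5. BAX was also higher and PMAIP1 lower at an unadjusted p below 0.05, but both by less than that fold change. Among all genes tested, 2.76% met the criteria as higher and 1.86% as lower, against 1 and 0 of the 10 members. An unadjusted p below 0.05 was reached by 2 members as higher, against 6.09% of all genes, and by 1 member as lower, against 5.50%. After Benjamini-Hochberg adjustment edgeR called 0 genes, or 0%, of which 0 were members, with 1678 genes at an unadjusted p below 0.05, while DESeq2 called 20 genes, of which 0 were members. For 1 gene taken alone, exact permutation of 2 against 2 samples stops at a two-sided p of 0.333. The adjusted p-values given below are therefore those of edgeR's quasi-likelihood test, in which all genes inform the spread. The smallest over all genes tested was 0.422, and genes of unlike unadjusted p shared it, such as BBC3 (0.00215) and BAX (0.0134). An adjusted p of 0.422 therefore does not rank the genes that carry it.

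In both LY500307 samples 7 members were above both Vehicle samples, a pattern seen for 24.2% of all genes, and 2 members were below both, seen for 24.4%. The log2 fold changes of the members ran from -0.43 to 0.55 with a median of 0.19, and 8 were positive. Over all genes tested the median was -0.00 and 7233 were positive. The members' summed level, most of it MCL1 and BAX, was 886 and 878 CPM in Vehicle and 952 and 1060 CPM in LY500307. In 9 members, all but BCL2L11, the LY500307 replicate 2 sample lay farther from the Vehicle mean than replicate 1 did. How many of all genes did so was not counted, so the pattern cannot be read as particular to the family.

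**Figure D1:**
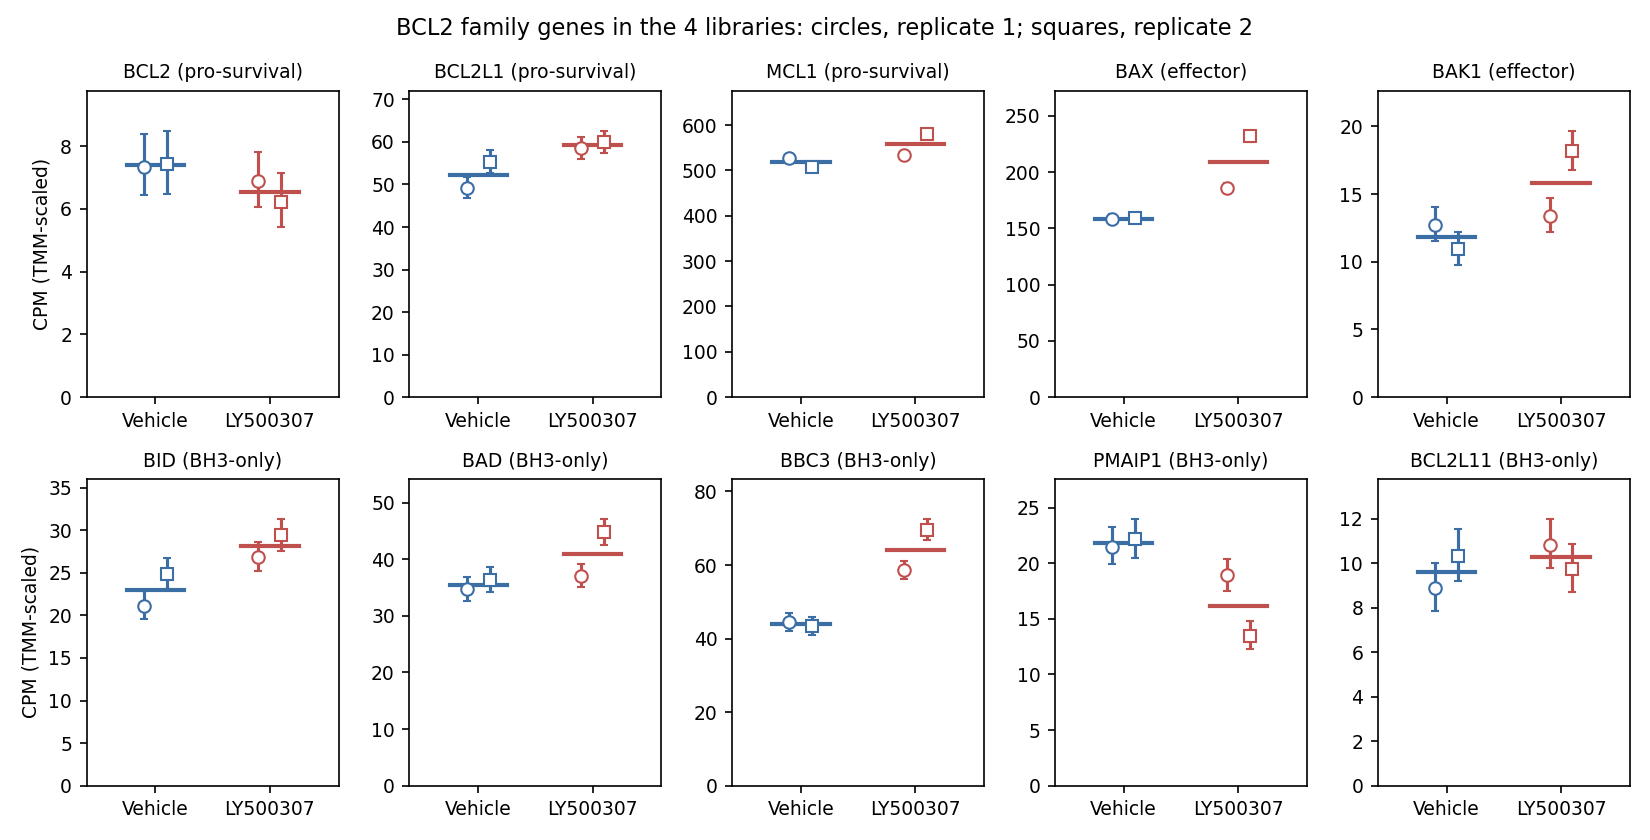
Normalised level of each member in the 4 libraries, in CPM scaled by TMM on axes that start at 0, with circles for replicate 1, squares for replicate 2, horizontal bars for the group mean and error bars for the Wilson 95% interval of the count. BBC3 stood at 44.4 and 43.4 CPM in Vehicle and 58.6 and 69.6 CPM in LY500307, whereas the groups of BCL2L11 overlapped.

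Among the pro-survival genes, BCL2, the founding inhibitor of the family (chr18:60790579-60987361 in GRCh37, the coordinates used for all genes here), was at 7.34 and 7.42 CPM in Vehicle and 6.89 and 6.22 CPM in LY500307. Its groups did not overlap, but the log2 fold change of -0.17 ± 0.18 (SE) was smaller than its error (adjusted p = 0.691). These values rested on 201 to 239 reads per library, the fewest of any member.

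BCL2L1 (chr20:30252255-30311792), whose main product BCL-XL is pro-survival, was at 49.2 and 55.4 CPM in Vehicle and 58.6 and 60.0 CPM in LY500307. MCL1 (chr1:150533371-150552214), which encodes a short-lived inhibitor, was at 528 and 509 CPM in Vehicle and 535 and 580 CPM in LY500307. In both genes the lower LY500307 sample lay close above the higher Vehicle sample. The log2 fold changes were 0.18 ± 0.11 for BCL2L1 (adjusted p = 0.508) and 0.10 ± 0.11 for MCL1 (adjusted p = 0.673). Counts per gene do not separate the pro-survival and pro-apoptotic splice forms of either gene.

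The effector BAX (chr19:49458072-49465055, 6 exons), which forms pores after moving to mitochondria, had 4742 and 4517 reads in Vehicle and 6441 and 7487 reads in LY500307. These were 158 and 159 CPM in Vehicle and 186 and 232 CPM in LY500307. The Vehicle samples nearly coincided, and both LY500307 samples lay above them, replicate 2 farther than replicate 1 on the log2 scale (0.55 and 0.23). BAX was 1.32-fold higher (log2 fold change 0.40 ± 0.12, adjusted p = 0.422; 0.222 to 0.513 over the alternatives that kept all samples). Leaving out LY500307 replicate 2 gave 0.23, and leaving out replicate 1 of that group gave 0.55. Removing a trend with exonic GC content gave 0.30 (the exons of BAX are 60.7% GC). The unadjusted p was no longer below 0.05 when either Vehicle library was left out. Its upstream window, printed above, was the one with 4 E-boxes.

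BAK1 (chr6:33540324-33548070), the effector resident on mitochondria, was at 12.7 and 10.9 CPM in Vehicle and 13.4 and 18.2 CPM in LY500307. The groups did not overlap, but LY500307 replicate 1 was within the counting error of Vehicle replicate 1. The log2 fold change of 0.42 ± 0.19 was about as large as that of BAX and its unadjusted p was not below 0.05 (adjusted p = 0.431), though it was with no filter beyond 1 count. Without LY500307 replicate 1, BAK1 met the DEG criteria.

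BBC3 (chr19:47724079-47736023, 4 exons on the minus strand), whose product PUMA binds all pro-survival members, had 1332 and 1233 reads in Vehicle and 2034 and 2249 reads in LY500307. In CPM these were 44.4 and 43.4 against 58.6 and 69.6. The gap between the groups was wider than the spread within either. BBC3 was 1.46-fold higher (log2 fold change 0.55 ± 0.12, adjusted p = 0.422; 0.084 to 0.507 over the alternatives that kept all samples) and ranked 49 of 14473 genes by p. It stayed at an unadjusted p below 0.05 in every alternative tried. The fold change fell short of the DEG criteria when a trend with exonic GC content was removed (0.41; the exons of BBC3 are 64.4% GC) and without LY500307 replicate 2 (0.42), and was 0.67 without LY500307 replicate 1.

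PMAIP1 (chr18:57567228-57571537, 2 exons), whose product NOXA binds chiefly MCL1, had 644 and 630 reads in Vehicle and 656 and 435 reads in LY500307. These were 21.5 and 22.2 CPM in Vehicle and 18.9 and 13.5 CPM in LY500307. Both LY500307 samples were lower, replicate 2 by far more, and the 95% counting intervals of the LY500307 samples (17.5 to 20.4 and 12.3 to 14.8 CPM) did not overlap each other. PMAIP1 was at 0.742 of the Vehicle level (log2 fold change -0.43 ± 0.18, adjusted p = 0.428; 0.366 to 0.541 over the alternatives that kept all samples), opposite in sign to BBC3 and BAX. The p was no longer below 0.05 with scaling to library totals alone, with the GC correction (with or without the replicate block), or when either Vehicle library or LY500307 replicate 2 was left out, and the log2 fold change was -0.20 when LY500307 replicate 2 was left out and -0.69 when replicate 1 was.

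The other BH3-only genes did not pass the test. BID (chr22:18216904-18257536), which caspase 8 cleaves to link death receptors to mitochondria, was at 21.2 and 24.9 CPM in Vehicle and 26.9 and 29.4 CPM in LY500307 (log2 fold change 0.29 ± 0.14, adjusted p = 0.443). BAD (chr11:64037302-64052176), which survival kinases inactivate by phosphorylation, was at 34.7 and 36.4 CPM in Vehicle and 37.1 and 44.7 CPM in LY500307 (0.20 ± 0.13, adjusted p = 0.526). With the GC correction the log2 fold change of BAD was 0.062 (its exons are 64.7% GC). BCL2L11 (chr2:111876955-111926021), which encodes BIM, was at 8.88 and 10.3 CPM in Vehicle and 10.8 and 9.75 CPM in LY500307 (0.10 ± 0.17, adjusted p = 0.812). The groups of BID and BAD did not overlap, and those of BCL2L11 did. Parts of the exons of BAD (404 bases, with GPR137), BAK1 (91 bases, with GGNBP1), BBC3 (80 bases, with MIR3191) and MCL1 (43 bases, with ADAMTSL4) overlap a gene on the opposite strand, and whether the counting used strand is not given in the sources used here.

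**Figure D2:**
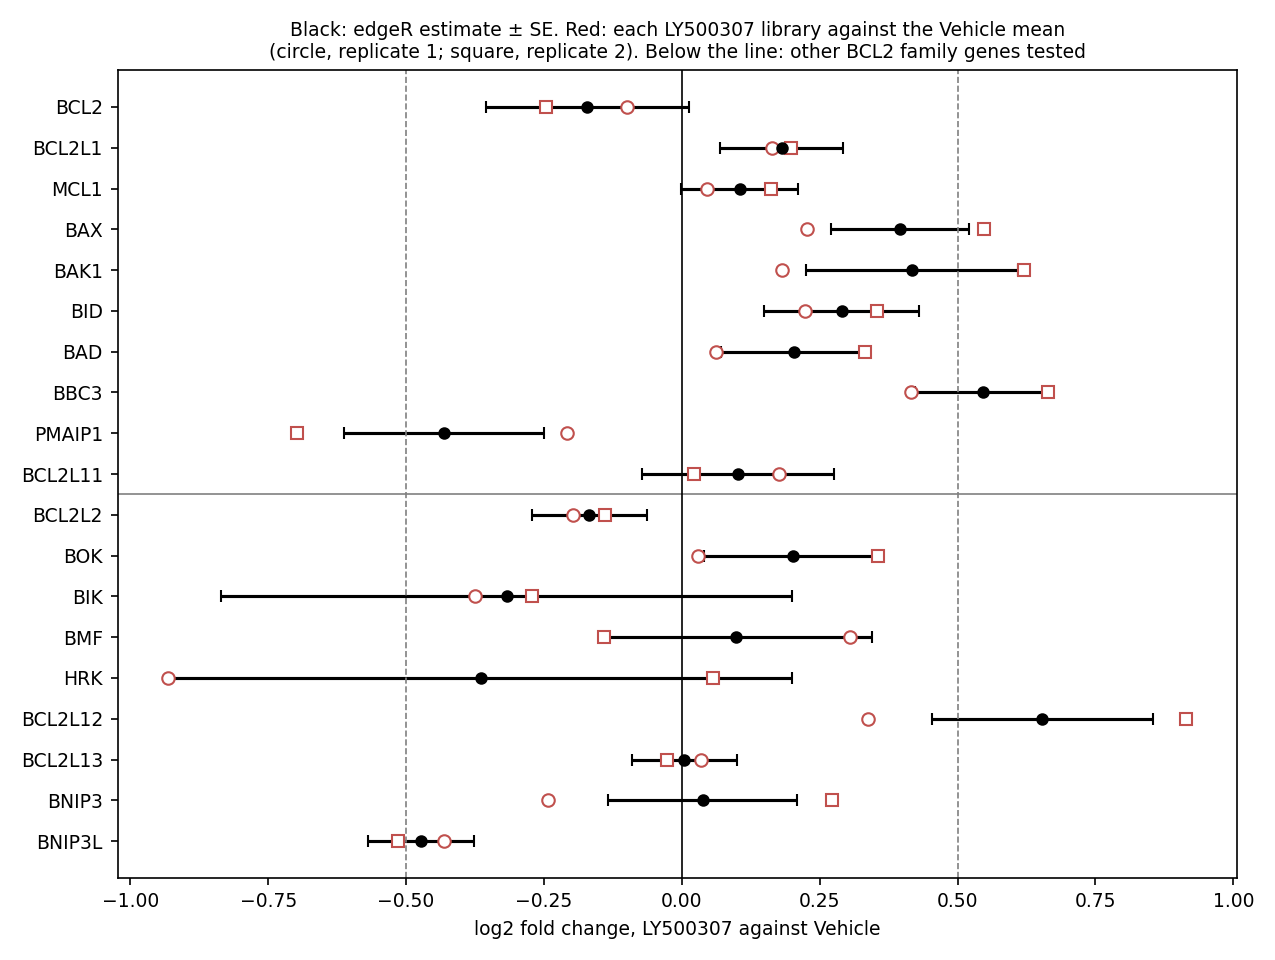
Log2 fold change of LY500307 against Vehicle for the 10 members and, below the line, the 9 other BCL2 family genes tested, with the edgeR estimate ± SE in black and each LY500307 library against the Vehicle mean in red. BBC3 and BCL2L12 lay beyond the dashed line at 0.5, and PMAIP1 and BNIP3L were the most negative of the genes with an unadjusted p below 0.05.

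The balance within a library was described by ratios of reads, which need no scaling between libraries. Reads were not scaled to transcript length (MANE transcripts of 795 bases for BAX, 3950 for MCL1 and 6881 for BCL2). A ratio can therefore be compared between libraries but does not show which of its 2 transcripts was more abundant. The ratios were not corrected for exonic GC content either. That content was 60.7% for BAX and 64.4% for BBC3 against 43.3% for BCL2 and 45.5% for MCL1. The GC correction moved the log2 fold change of BAX from 0.396 to 0.296 and that of BCL2 from -0.171 to -0.105. BAX to BCL2, the customary ratio, was 21.6 and 21.4 in Vehicle and 26.9 and 37.2 in LY500307, a difference of 0.56 on the log2 scale. That difference was 0.33 when LY500307 replicate 2 was left out and 0.79 when replicate 1 was. The other 4 ratios were chosen after the values were seen. BBC3 to MCL1 was 0.0842 and 0.0853 in Vehicle and 0.110 and 0.120 in LY500307 (log2 difference 0.44), and PMAIP1 to MCL1 was 0.0407 and 0.0436 in Vehicle and 0.0353 and 0.0232 in LY500307 (-0.56). BAX to MCL1 was 0.30 and 0.313 against 0.347 and 0.40 (0.28). These 4 ratios did not overlap between groups, and each had a two-sided exact permutation p of 0.333 (0.417 after adjustment over 5 ratios), the smallest the design allows. BAX to BCL2L1, at 3.21 and 2.87 in Vehicle and 3.17 and 3.86 in LY500307, overlapped (exact permutation p = 0.667).

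**Figure D3:**
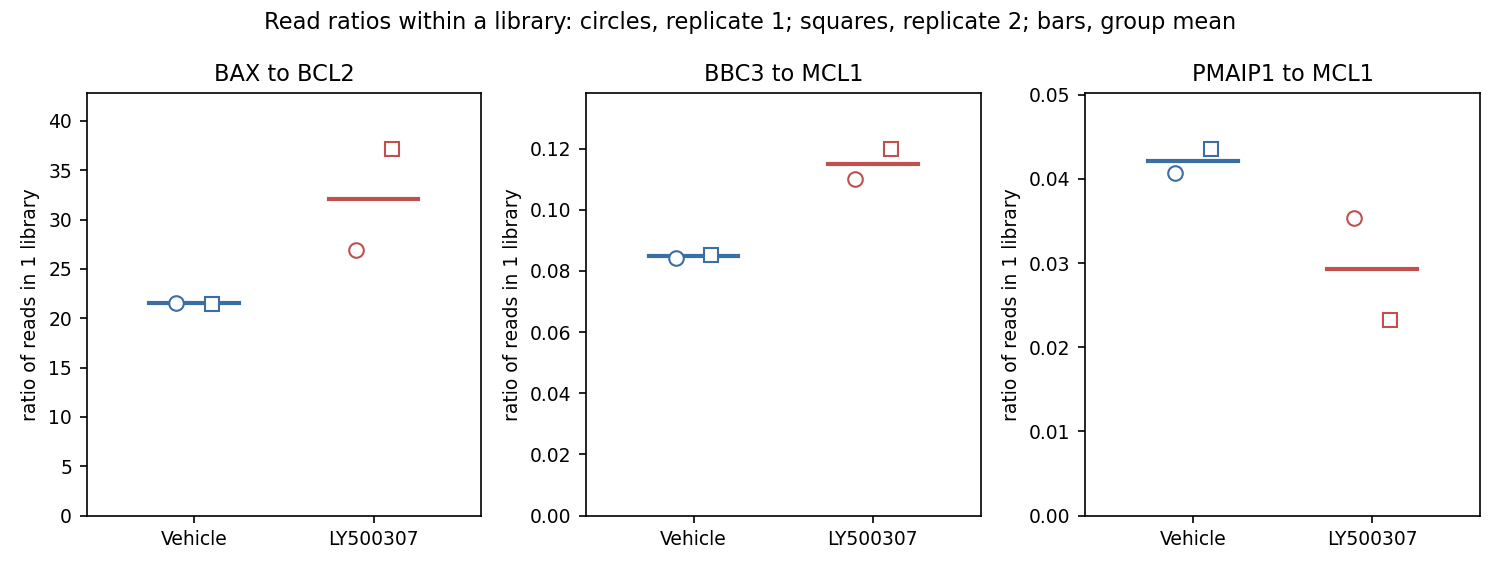
Ratios of reads of 2 members within each library, on axes that start at 0, with circles for replicate 1, squares for replicate 2 and bars for the group mean. BAX to BCL2 was 21.6 and 21.4 in Vehicle against 26.9 and 37.2 in LY500307, and PMAIP1 to MCL1 was lower in both LY500307 libraries.

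Of 13 further genes of the family, 9 passed the filter, and BCL2A1, BCL2L10, BCL2L14 and BCL2L15, with 0 to 8 reads per library, did not. BCL2L12, an atypical member, met the DEG criteria with 432 and 391 reads in Vehicle and 618 and 858 reads in LY500307 (14.1 to 22.2 CPM, log2 fold change 0.65 ± 0.20, adjusted p = 0.422). When LY500307 replicate 2 was left out, its log2 fold change was 0.34, which ended that call. BNIP3L, a receptor for the removal of mitochondria, was at 157 and 162 CPM in Vehicle and 118 and 112 CPM in LY500307. It had the smallest p of the whole family and fell just short of the fold change (-0.47 ± 0.10, adjusted p = 0.422), which it passed at -0.51 when LY500307 replicate 1 was left out. BCL2L2 (-0.17, adjusted p = 0.509), BOK (0.20, adjusted p = 0.592), BIK (-0.32, adjusted p = 0.803), BMF (0.10, adjusted p = 0.877), HRK (-0.36, adjusted p = 0.793), BCL2L13 (0.00, adjusted p = 0.986) and BNIP3 (0.04, adjusted p = 0.936) did not pass by edgeR. The median log2 fold change of the 9 genes was 0.00. The summed level of the 13 genes was 419 and 410 CPM in Vehicle and 367 and 386 CPM in LY500307.

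Of 16 genes listed for steps around and after membrane permeabilization, among them CYCS, APAF1 and CASP9, 0 were at an unadjusted p below 0.05. Over all genes tested, 6.09% reached it as higher and 5.50% as lower, so 0 of so short a list says little. The smallest p-values belonged to ENDOG, a mitochondrial nuclease (0.43 ± 0.20, adjusted p = 0.432), and VDAC2, a channel that holds BAK1 (0.72 ± 0.35, adjusted p = 0.444). VDAC2 was at 15.4 and 12.4 CPM in Vehicle and 13.6 and 32.2 CPM in LY500307, so its estimate came from replicate 2, and its reads may be shared with pseudogenes. Of 22 regulators of the family 0 were at an unadjusted p below 0.05, against the same shares of all genes. Among the regulators was DYNLL2, which tethers BMF, at 0.25 ± 0.11 (adjusted p = 0.431).

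**Figure D4:**
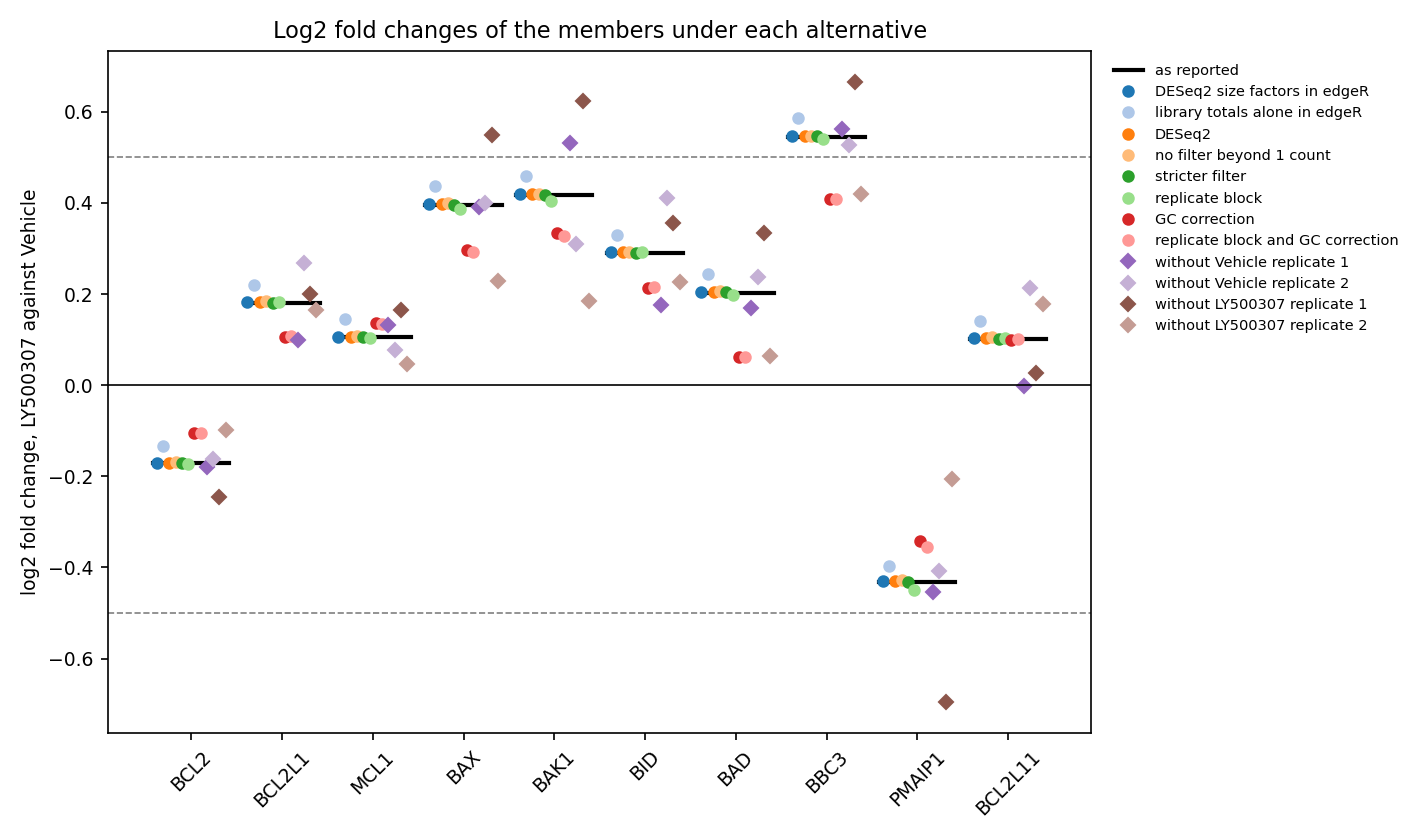
Log2 fold change of each member as reported (black bar) and under each alternative, with circles for other scalings, filters, tools and corrections and diamonds for leaving out 1 library. BBC3 ranged from 0.41 to 0.67 and PMAIP1 from -0.69 to -0.20, and BCL2L11 reached -0.0027 without Vehicle replicate 1.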

How the data were processed

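RNA-seq of SKOV3-ALDH+ OCSCs was analysed for 2 Vehicle and 2 LY500307 samples, grouped by their labels. Per the labels, the authors used bcl2fastq, TopHat2 2.0.8b and HTSeq on hg19 and deposited raw counts per gene symbol, without normalization. The labels name total RNA libraries, the study's methods stranded mRNA libraries. Tally lines were left out, and reads on no gene were 17.3% to 20.5% of the total.

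Counts were tested across all genes in R 4.3.3 with edgeR 4.0.16 (TMM, filterByExpr, quasi-likelihood test, Benjamini-Hochberg adjustment). Each SE came from the log2 fold change and the square root of its F statistic. CPM used TMM-scaled libraries, and Wilson 95% intervals and the floor of 3 counts cover counting error only. The scripts were tested on simulated data. Alternatives were DESeq2 1.42.0, other scalings and filters, a replicate block, a loess correction (span 0.3) for exonic GC content, and leaving out each library. GENCODE matched 91.6% of symbols. All members were named, with the tested other family genes and, of each list, the genes meeting the DEG criteria or else the 2 with the smallest p. A list and some genes that this rule would name are not reported. Members and lists were chosen with earlier results of these data known.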

Additional observations from a re-analysis of the deposited data

How the results depend on the processing

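The count of members meeting the DEG criteria was 1 as reported, 0 with the GC correction and 0 with the replicate block and GC correction together, and with 1 library left out it ranged between 0 (LY500307 replicate 2 omitted) and 4 (replicate 1 omitted, with BAX, BAK1, BBC3 and PMAIP1). Over all genes the count was 669 as reported and lay between 352 (LY500307 replicate 2 left out) and 1987 (replicate 1 left out). Genes with an adjusted p below 0.05 numbered 0 as reported by edgeR, 20 by DESeq2, 1 under the replicate block, 3 under that block plus GC correction, and 0 to 5002 when 1 library was left out. A left-out library leaves a lone sample that is assumed to vary like the other group, and the cause of these shifts was not tested. The deviations of same-numbered samples had a correlation of -0.07 over all genes tested, each weighted alike. That value alone cannot decide whether the numbers are pairs, since counting noise of low genes can dilute it. The main fit did not take the numbers as pairs. The replicate block gave 717 genes meeting the criteria, with BBC3 the 1 member among them.

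Signs turned for BCL2L11 (-0.0027 to 0.21 with 1 library left out), BIK (-0.65 to 0.10), BMF (-0.16 to 0.41), HRK (-0.92 to 0.0736), BCL2L13 (-0.0239 to 0.0373) and BNIP3 (-0.24 to 0.28, and -0.0136 with the block and GC correction), none of which passed a test as reported. Of 226 values of single genes under an alternative, 208 kept their direction and their side of the DEG criteria. Those criteria aside, the unadjusted p crossed 0.05 under at least 1 alternative for BAX, PMAIP1, BAK1, BCL2L2 and BNIP3, and for BCL2L1, MCL1, BID, BAD and BOK when LY500307 replicate 1 was left out. With 201 to 239 reads per library, BCL2 had the widest relative counting error of the members.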
